A study of Mus musculus with 9 samples.

Results

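The genes described here act in growing neurites, most of them by building or regulating microtubules: the doublecortin family genes Dcx and Dclk1, the stathmin genes Stmn1, Stmn2, Stmn3 and Stmn4, the growth cone gene Gap43, the microtubule-associated protein genes Map1b and Map2, and the neuronal beta-tubulin gene Tubb3. They are 10 of the 18193 genes measured. Members were chosen by gene symbol, from every probe set that the array's annotation ties to 1 of these symbols alone, which gave 29 of the 45101 probe sets on the array. The choice was made with earlier results of these data known. Each gene was read from its probe set with the highest mean over the 9 arrays, and the 19 other probe sets served as a check.

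RNA came from mouse retinal cells sorted by GFP fluorescence, on the mixed background C57BL/6J-129/Ola in every group. There were 3 groups of 3 arrays: GFP-positive cells of rhoEGFP pups, a rod photoreceptor reporter line, at postnatal day 4 (P4), GFP-negative cells of the same line and age, and cells sorted as GFP-positive from pNestin-GFP pups at postnatal day 0 (P0), in which GFP follows the progenitor gene nestin. Each array held the pooled retinae of 6 to 8 pups, and the sources do not give the sorting gates. The rhoGFP-negative fraction therefore mixes all cells below the GFP gate, and the nestinGFP-positive group differs from both others in line and age.

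A newborn neuron extends its axon and dendrites by adding tubulin to microtubules and by stabilising them with associated proteins. Doublecortin binds and bundles microtubules in migrating and newly born neurons. Stathmins bind free tubulin dimers and promote microtubule disassembly, and the palmitoylated neuronal members Stmn2, Stmn3 and Stmn4 sit on vesicles of the Golgi and the growth cone. In the postnatal mouse retina ganglion and amacrine cells are born before most rods, so that long-axon neurons, neurons with dendrites, dividing progenitors and young rods are present side by side.

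The median log2 signal was 6.08 to 6.17 on the 9 arrays. The marker lists went the way of the labels in the rhoGFP-positive group: the mean of 10 rod markers was 11.9 to 12.3 (log2) in rhoGFP-positive, 8.37 to 9.27 in rhoGFP-negative and 7.51 to 8.70 in nestinGFP-positive arrays, and limma called 10 of 10 higher in the first group than in either other. Of all genes 3.61% and 5.06% were called higher in these comparisons. The arrays numbered 1 stood apart in all groups, with a mean 18S ribosomal RNA control signal of 13.6 (rhoGFP-positive), 13.6 (rhoGFP-negative) and 12.1 (nestinGFP-positive) against 9.65 to 10.4 on the 6 other arrays. The gap between the 3′ and 5′ probe sets for actin, which widens as RNA shortens, was 0.85, 0.97 and 0.90 (log2) in rhoGFP-positive, 0.64, 0.68 and 0.64 in rhoGFP-negative and 0.40, 0.61 and 0.99 in nestinGFP-positive arrays. It thus differed between the rhoGFP fractions with no overlap, and its part in the members' differences was not tested. A gene was called when its limma adjusted p was below 0.05, with Benjamini-Hochberg adjustment over the 18193 genes, and the groups differed by at least 2-fold, which is 1 log2 unit. In such sorted bulk samples fewer cells of a type and less RNA per cell cannot be told apart.

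In the rod reporter cells 8 of the 10 genes stood below both other groups on every array, and Map1b and Map2 stood above them on every array. Among all genes 20.3% lay below and 17.9% above the rhoGFP-negative arrays in this way, and 23.4% below and 24.4% above the nestinGFP-positive arrays. Against rhoGFP-negative cells of the same age, limma called 6 members lower (Dcx, Dclk1, Stmn2, Stmn4, Gap43 and Tubb3) and 0 higher, where 7.32% of all genes were called lower and 3.61% higher. Map1b and Map2, both above rhoGFP-negative cells, had an unadjusted limma p below 0.05 there, as did 14.7% of all genes in that direction. Against nestinGFP-positive cells it called 8 lower and 1 higher, Map1b, where 10.5% of all genes were called lower and 5.06% higher. Between rhoGFP-negative and nestinGFP-positive cells it called 2 lower, Dcx and Dclk1, and 0 higher, where 0.605% of all genes were called lower and 0.385% higher. At an unadjusted limma p below 0.05, 5 members were lower there and 1 higher, Map1b, where 9.8% and 8.26% of all genes were. In that comparison 5 members were lower and 1 higher with no overlap of arrays, where 8.79% and 11.8% of all genes were. By the adjusted p alone, with no minimum fold, 9 members differed in each comparison of the rhoGFP-positive group, all but Map2, where 24.3% of all genes did against rhoGFP-negative and 35.8% against nestinGFP-positive cells. Between rhoGFP-negative and nestinGFP-positive cells the 2 genes called were the only members to differ so, where 2.03% of all genes did. The median log2 difference of the 10 members was -1.42, -2.12 and -0.29 in these comparisons, beside 0.01, 0.06 and 0.03 over all genes. The comparisons share arrays, so that they are not independent of one another.

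**Figure D1:**
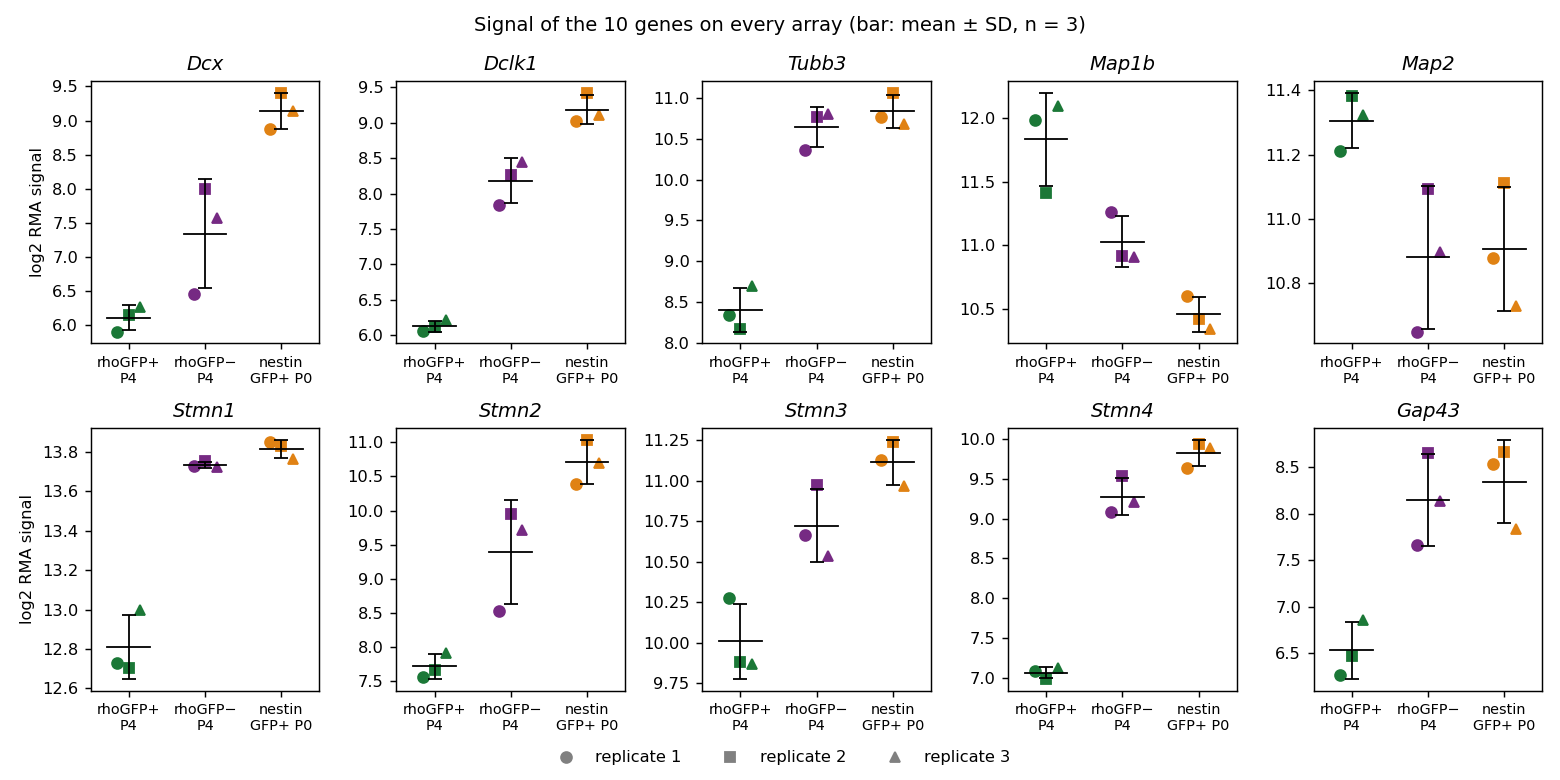
Log2 RMA signal of the probe set used for each of the 10 genes on every array, by sorted group, with replicates 1 to 3 as different symbols and the mean ± SD (n = 3) as a line with bars. Each panel has its own axis. The 3 rhoGFP-positive arrays lie below all others in 8 panels and above all others in those of Map1b and Map2.

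Dcx, the X-linked gene of doublecortin, had signals of 5.91, 6.15 and 6.27 (log2) in rhoGFP-positive cells, 6.45, 8.00 and 7.57 in rhoGFP-negative cells and 8.87, 9.40 and 9.14 in nestinGFP-positive cells, in the order of replicates 1, 2 and 3. The 3 groups did not overlap, and rhoGFP-negative replicate 1 lay closer to the rhoGFP-positive arrays than to its own replicates. The difference between rhoGFP-positive and nestinGFP-positive cells was -3.03 ± 0.33 (SE), an 8.16-fold lower signal (limma adjusted p = 7.89e-05). Against rhoGFP-negative cells it was -1.23 ± 0.33, 2.35-fold lower (limma adjusted p = 0.0224), and rhoGFP-negative cells were themselves 3.48-fold below nestinGFP-positive cells (-1.80 ± 0.33, limma adjusted p = 0.0306). The call between the rhoGFP fractions was lost without rhoGFP-positive replicate 1 (limma adjusted p = 0.0701) or 2 (0.0619) and without rhoGFP-negative replicate 2 (0.0737) or 3 (0.0786). Without the 3 arrays numbered 1 it was kept, at -1.57 (limma adjusted p = 0.00113).

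Dclk1, which encodes a doublecortin-like protein with a kinase domain in its long forms, gave the same order with less scatter. Its signals were 6.06, 6.11 and 6.21 in rhoGFP-positive cells, 7.83, 8.26 and 8.45 in rhoGFP-negative cells and 9.02, 9.42 and 9.12 in nestinGFP-positive cells, and no groups overlapped. The gene was 4.16-fold lower in rhoGFP-positive than in rhoGFP-negative cells (-2.06 ± 0.17, limma adjusted p = 2.27e-05) and 8.34-fold lower than in nestinGFP-positive cells (-3.06 ± 0.17, limma adjusted p = 1.71e-06). The difference between rhoGFP-negative and nestinGFP-positive cells stood at the 2-fold minimum (-1.003 ± 0.167, limma adjusted p = 0.0241). That last call was lost without the 3 arrays numbered 1 (-0.91) and without any 1 of 5 arrays, namely replicate 2 of each of the 3 groups, rhoGFP-negative replicate 1 and nestinGFP-positive replicate 3. The call of Dcx in the same comparison was lost without replicate 2 or 3 of the rhoGFP-positive group or of the nestinGFP-positive group. A rhoGFP-positive array enters this comparison only through the spread shared by the 3 groups.

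Tubb3, the beta-tubulin isotype used as a marker of young neurons, had the largest fold difference of the 10 genes between the rhoGFP fractions. It stood at 8.34, 8.17 and 8.69 in rhoGFP-positive, 10.37, 10.77 and 10.81 in rhoGFP-negative and 10.76, 11.06 and 10.68 in nestinGFP-positive cells. The signal was 4.74-fold lower in rhoGFP-positive than in rhoGFP-negative cells (-2.24 ± 0.18, limma adjusted p = 1.83e-05) and 5.41-fold lower than in nestinGFP-positive cells (-2.43 ± 0.18, limma adjusted p = 6.98e-06). The rhoGFP-negative and nestinGFP-positive arrays overlapped, with a difference of -0.19 (95% interval -0.58 to 0.20).

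Among the stathmins the size of the difference varied. Stmn4 stood at 7.09, 6.99 and 7.12 in rhoGFP-positive, 9.08, 9.53 and 9.22 in rhoGFP-negative and 9.64, 9.95 and 9.89 in nestinGFP-positive cells. It was 4.64-fold lower in rhoGFP-positive than in rhoGFP-negative cells (-2.21 ± 0.14, limma adjusted p = 6.29e-06) and 6.78-fold lower than in nestinGFP-positive cells (-2.76 ± 0.14, limma adjusted p = 1.31e-06). No groups overlapped, and the rhoGFP-negative minus nestinGFP-positive difference of -0.55 ± 0.14 was not called (limma adjusted p = 0.0749).

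Stmn2, also known as SCG10 and abundant in growth cones, stood at 7.57, 7.67 and 7.92 in rhoGFP-positive, 8.52, 9.95 and 9.71 in rhoGFP-negative and 10.39, 11.03 and 10.70 in nestinGFP-positive cells. As for Dcx, rhoGFP-negative replicate 1 was the low array of its group, and no groups overlapped. The gene was 3.19-fold lower in rhoGFP-positive than in rhoGFP-negative cells (-1.67 ± 0.33, limma adjusted p = 0.00426) and 7.93-fold lower than in nestinGFP-positive cells (-2.99 ± 0.33, limma adjusted p = 7.83e-05). Between rhoGFP-negative and nestinGFP-positive cells the difference of -1.31 ± 0.33 was not called (limma adjusted p = 0.0733). It was called with the replicate number as a block (limma adjusted p = 0.00521) and, at -1.04, without the 3 arrays numbered 1 (limma adjusted p = 0.0449).

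Stmn1, the founding stathmin, is found in dividing cells as well as in neurons. It was near the upper end of the array's scale in all groups, at 12.73, 12.71 and 13.00 in rhoGFP-positive, 13.73, 13.75 and 13.72 in rhoGFP-negative and 13.85, 13.83 and 13.77 in nestinGFP-positive cells. The difference between the rhoGFP fractions was -0.92 ± 0.10 (limma adjusted p = 0.000165), below the 2-fold minimum, and that from nestinGFP-positive cells was -1.004 ± 0.105 (limma adjusted p = 5.90e-05), just past it. That second call was lost after common-median (-0.96), quantile (-0.97) and cyclic loess (-0.90) normalization, without the 3 arrays numbered 1 (-0.95), and without rhoGFP-positive replicate 1 or 2 or nestinGFP-positive replicate 1 or 2. Without rhoGFP-positive replicate 3 the rhoGFP fractions differed by -1.02 and were called. The other Stmn1 probe set, which is less bright and not of the kind that may match several transcripts, gave larger differences of -1.46 ± 0.19 and -1.53 ± 0.19 and was called in both.

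By the probe sets used, Stmn3, or SCLIP, had the smallest difference of the 4 stathmins between the rhoGFP fractions. Stmn1 had it in the other comparisons. Against nestinGFP-positive cells the other Stmn1 probe set, at -1.53, differed more than the Stmn3 probe sets, at -1.10 and -1.06. Stmn3 stood at 10.28, 9.88 and 9.87 in rhoGFP-positive, 10.66, 10.97 and 10.54 in rhoGFP-negative and 11.13, 11.24 and 10.97 in nestinGFP-positive cells. The rhoGFP-positive arrays did not overlap either group, while rhoGFP-negative and nestinGFP-positive arrays overlapped. The difference was -0.71 ± 0.16 between the rhoGFP fractions, not called because it is under 2-fold (limma adjusted p = 0.00763), and -1.10 ± 0.16 from nestinGFP-positive cells, which was called (limma adjusted p = 0.000374).

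Gap43, a protein kinase C substrate of the growth cone membrane, stood at 6.26, 6.47 and 6.86 in rhoGFP-positive, 7.66, 8.65 and 8.14 in rhoGFP-negative and 8.53, 8.67 and 7.84 in nestinGFP-positive cells. It was 3.07-fold lower in rhoGFP-positive than in rhoGFP-negative cells (-1.62 ± 0.28, limma adjusted p = 0.00234) and 3.52-fold lower than in nestinGFP-positive cells (-1.81 ± 0.28, limma adjusted p = 0.000746). The rhoGFP-negative and nestinGFP-positive arrays overlapped, at -0.20 (95% interval -0.83 to 0.44).

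The microtubule-associated protein genes went the other way. Map1b, whose product is the first of these proteins to appear in growing axons, stood at 11.99, 11.41 and 12.09 in rhoGFP-positive, 11.26, 10.92 and 10.91 in rhoGFP-negative and 10.60, 10.42 and 10.34 in nestinGFP-positive cells. No groups overlapped. It was 2.59-fold higher in rhoGFP-positive than in nestinGFP-positive cells (1.38 ± 0.18, limma adjusted p = 0.000272). Between the rhoGFP fractions the difference of 0.80 ± 0.18 was under the 2-fold minimum (limma adjusted p = 0.00995), and without rhoGFP-positive replicate 2 it was 1.01 and called. Between rhoGFP-negative and nestinGFP-positive cells it was 0.57 ± 0.18 and not called (limma adjusted p = 0.138).

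Map2, which encodes the microtubule-associated protein of dendrites and cell bodies, stood at 11.21, 11.38 and 11.32 in rhoGFP-positive, 10.65, 11.09 and 10.90 in rhoGFP-negative and 10.88, 11.11 and 10.73 in nestinGFP-positive cells. The rhoGFP-positive arrays lay above all others, but the differences of 0.43 ± 0.14 and 0.40 ± 0.14 did not pass the test (limma adjusted p = 0.0555 and 0.052). The rhoGFP-negative and nestinGFP-positive arrays overlapped, at -0.03 (95% interval -0.34 to 0.29).

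**Figure D2:**
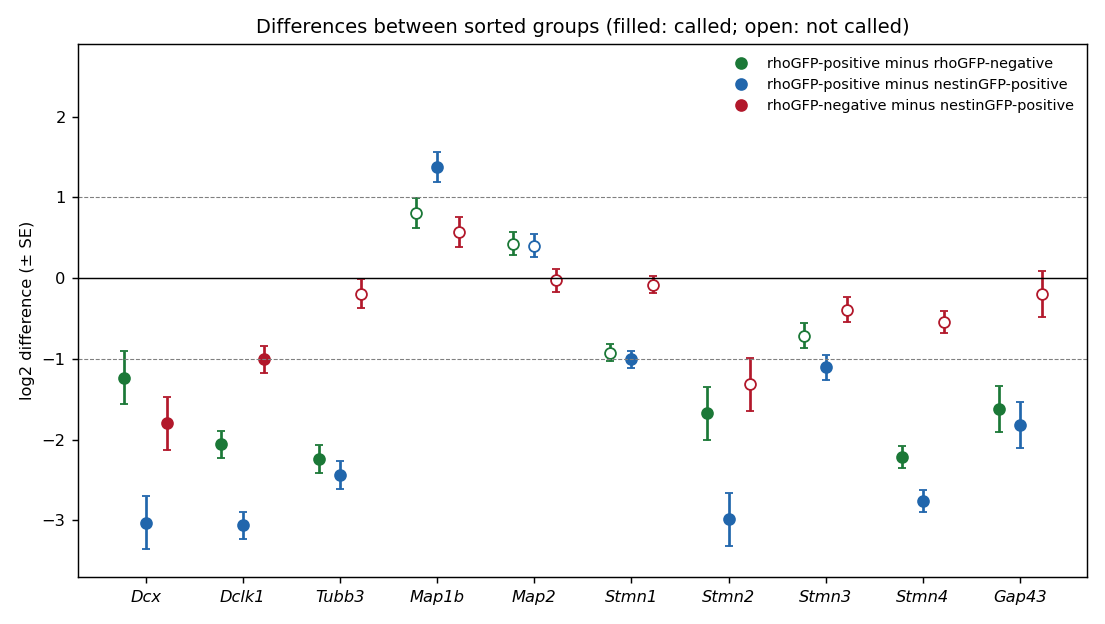
Log2 differences with their standard errors from the fit of all 9 arrays, for each gene and comparison. Filled points were called (limma adjusted p below 0.05 and at least 2-fold, dashed lines) and open points were not. Dcx, Dclk1 and Stmn2 reach about -3 against nestinGFP-positive cells, and Map1b and Map2 lie above 0 in both comparisons of the rhoGFP-positive group.

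Within replicate numbers 1, 2 and 3 the rhoGFP-positive minus rhoGFP-negative difference was -0.55, -1.85 and -1.30 for Dcx, -0.95, -2.27 and -1.79 for Stmn2 and -0.39, -1.09 and -0.66 for Stmn3. For Dclk1 it was -1.78, -2.15 and -2.24, for Tubb3 -2.02, -2.59 and -2.11, for Stmn4 -1.996, -2.55 and -2.10, and for Map1b 0.73, 0.50 and 1.19. The direction was thus the same in 3 of 3 numbers for these genes. Of the 8 genes lower in rhoGFP-positive cells, Dcx, Dclk1, Stmn2, Stmn3, Stmn4 and Tubb3 differed least in number 1, and Stmn1 and Gap43 in number 3. On rhoGFP-negative replicate 1, where Dcx, Dclk1, Stmn2, Stmn4, Gap43 and Tubb3 were lowest in their group, the mean of 9 amacrine markers was 8.26 against 9.21 and 8.98 on replicates 2 and 3. The mean of 10 rod markers there was 9.27 against 8.77 and 8.37, and the 18S signal 13.6 against 9.75 and 10.4. Their part in the lower signals was not tested.

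The promoter sequences of 3 members are shown, those whose start in the RefSeq table is the outermost start of the gene. They are Tubb3, the member with the largest fold between the rhoGFP fractions, Stmn3, a stathmin with a small one, and Map1b, which went the other way. They were not picked for these differences. Each is the 250 bases before the start (RefSeq, GRCm38.p6), 5′ to 3′ on the gene's strand, at chr8:123411303-123411552 (plus strand), chr2:181314501-181314750 (minus strand) and chr13:99516603-99516852 (minus strand). Capitals mark matches to any of 8 short motifs on either strand.
Tubb3: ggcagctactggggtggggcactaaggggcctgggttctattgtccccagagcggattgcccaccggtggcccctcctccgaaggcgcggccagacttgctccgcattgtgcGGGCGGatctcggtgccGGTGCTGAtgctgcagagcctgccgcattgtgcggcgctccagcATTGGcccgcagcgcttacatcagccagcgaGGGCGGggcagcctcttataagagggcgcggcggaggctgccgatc
Stmn3: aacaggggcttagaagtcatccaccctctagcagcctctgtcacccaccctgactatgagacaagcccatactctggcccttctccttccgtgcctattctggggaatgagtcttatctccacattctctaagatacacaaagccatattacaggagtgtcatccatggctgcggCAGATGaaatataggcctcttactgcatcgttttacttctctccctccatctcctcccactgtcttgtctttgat
Map1b: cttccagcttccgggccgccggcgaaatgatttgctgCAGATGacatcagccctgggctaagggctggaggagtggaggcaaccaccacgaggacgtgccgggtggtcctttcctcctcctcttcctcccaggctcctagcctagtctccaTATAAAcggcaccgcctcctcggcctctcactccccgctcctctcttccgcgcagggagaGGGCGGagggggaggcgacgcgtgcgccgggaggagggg
The motifs were an E-box with the letters CAGCTG and another with the letters CAGATG, the CRX and OTX motif TAATCC, the TATA box as TATAAA, the GC box as GGGCGG and the CCAAT box. To these came TCAGCACC as the left part and GGACAG as the right part of RE1, the element bound by the neuronal gene repressor REST. None of them holds another, and matches did not overlap in these windows. Tubb3 held 2 GC boxes, a CCAAT and a TCAGCACC from -121 to -114, a motif in 1.32% of 32851 windows of the same length in the RefSeq table. Stmn3 held a single match, CAGATG from -75 to -70, which 14.44% of windows hold. Map1b held CAGATG from -213 to -208, TATAAA from -99 to -94, as do 12.4% of windows, and a GC box, as do 32.7%. GC made up 68.0% of the Tubb3, 48.8% of the Stmn3 and 66.4% of the Map1b window, with a median of 52.4% over all windows. Map2, Dclk1 and Dcx also had windows in the table, at starts that are not the outermost. TAATCC, held by 6.25% of all windows, was in none of the 8 windows of these 6 genes. Stmn1, Stmn2, Stmn4 and Gap43 had no entry.

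The other probe sets of the same genes were read against a fit over all 34945 probe sets with a single gene. Of the 19, limma called 6 lower and 1 higher between the rhoGFP fractions, and 10 lower and 2 higher between rhoGFP-positive and nestinGFP-positive cells. Of all probe sets in that fit 5.89% were called lower and 3.17% higher in the first comparison, and 8.91% and 4.68% in the second. Between rhoGFP-negative and nestinGFP-positive cells it called 0, where 0.389% of all were called lower and 0.217% higher, and there Dclk1 had a probe set at -0.97 ± 0.18 with limma adjusted p = 0.0439, short of the 2-fold minimum. Dclk1 had 9 probe sets in all. Of its 8 others, 4 were called lower between the rhoGFP fractions, at -1.10 to -1.74, and 6 were called lower against nestinGFP-positive cells, at -1.43 to -2.70. The remaining 2, with mean signals of 3.88 and 5.09 over the arrays, stood between 0.03 and 0.17 in these comparisons.

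Dcx had 3 others. The one with a mean of 6.54 stood at 5.73, 5.05 and 5.45 in rhoGFP-positive, 6.40, 6.46 and 6.38 in rhoGFP-negative and 8.31, 8.08 and 6.97 in nestinGFP-positive cells. It was lower by 2.37 log2 units in rhoGFP-positive than in nestinGFP-positive cells (-2.37 ± 0.31, limma adjusted p = 0.000425) and not called between the rhoGFP fractions (-1.001 ± 0.314, limma adjusted p = 0.0546). On it rhoGFP-negative replicate 1 was level with its group. Those with means of 4.77 and 5.17 stood between 0.01 and 0.18 in both comparisons of the rhoGFP-positive group. With the mean of its 4 probe sets Dcx was at -0.49 between the rhoGFP fractions and no longer called.

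The second probe set of Stmn2 gave -1.59 ± 0.26 between the rhoGFP fractions and -2.91 ± 0.26 against nestinGFP-positive cells, and that of Stmn3 gave -0.73 ± 0.14 and -1.06 ± 0.14. Each had the same call as the probe set used. Map2 had 3 others, of which 1 was called higher in rhoGFP-positive cells, by 1.39 ± 0.29 against rhoGFP-negative cells (limma adjusted p = 0.00917) and by 1.26 ± 0.29 against nestinGFP-positive cells (limma adjusted p = 0.0096). Map2 transcripts include long and short forms, and the annotation used here does not say which form a probe set reads. A Map1b probe set was at 1.48 ± 0.45 against nestinGFP-positive cells (limma adjusted p = 0.0335) and at 1.05 ± 0.45 without a call between the rhoGFP fractions (limma adjusted p = 0.152). It stood at 8.09, 7.58 and 6.02 on nestinGFP-positive replicates 1, 2 and 3. Its rhoGFP-positive minus nestinGFP-positive difference within these numbers was 0.22, 1.22 and 3.01, and thus rested largely on replicate 3.

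The remaining Map1b and Map2 probe sets followed the replicate number more than the group. The dimmest of Map1b stood at 8.03 on rhoGFP-positive replicate 1 with 5.26 and 5.53 on the other arrays of that group, at 6.91 on rhoGFP-negative replicate 1 against 5.30 and 5.03, and at 5.98 on nestinGFP-positive replicate 1 against 5.11 and 4.95. A Map2 probe set stood at 7.43, 6.94 and 7.02 on the arrays numbered 1 in the same group order, and between 5.79 and 6.32 on the 6 others. These are the arrays with the high 18S signal, and the part of that in these probe sets was not tested.

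**Figure D3:**
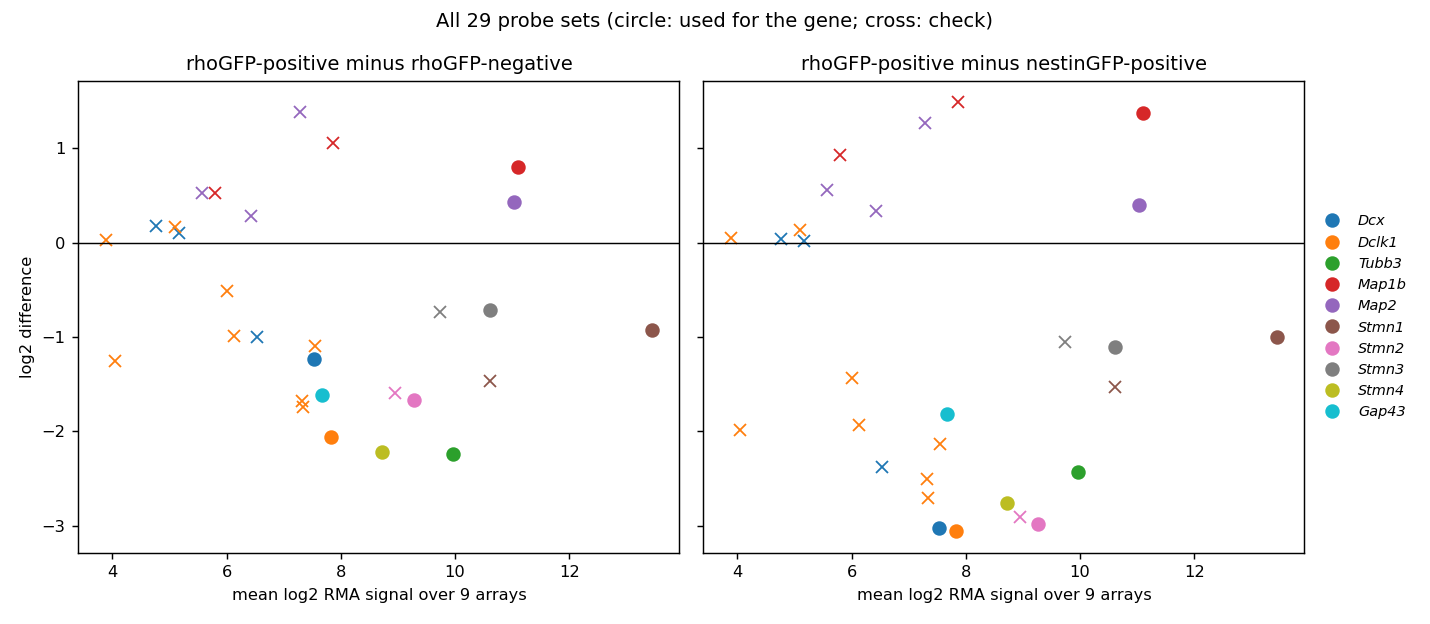
Log2 difference of each of the 29 probe sets (vertical axis) against its mean log2 signal over the 9 arrays (horizontal axis), for both comparisons of the rhoGFP-positive group, coloured by gene. Circles are the probe sets used for the genes and crosses the 19 others. All Map1b and Map2 probe sets lie above 0, and the Dcx and Dclk1 crosses near 0 have means of 3.88 to 5.17. Another Dclk1 cross in that range, with a mean of 4.04, lies at -1.25 against rhoGFP-negative and -1.99 against nestinGFP-positive cells.

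Over the 9 arrays the 8 genes that were lowest in rhoGFP-positive cells correlated with each other at Pearson's r = 0.80 to 0.99 in 28 pairs. Stmn1 with Tubb3, at 0.99, and Dcx with Stmn2, at 0.98, were among the highest. Map1b correlated with these 8 at -0.94 to -0.82 and Map2 at -0.77 to -0.44. These values describe 9 arrays that fall into 3 groups and share their normalization. The 8 genes were set apart from Map1b and Map2 by their values on the same arrays. The signs of these correlations follow largely from that choice and are no separate evidence. The non-member genes most like Dcx, among those brighter than the median gene, were Kcnip1, Tnc, Bloc1s6, Larp6 and Tnik (r = 0.99 each, 9 arrays). For Stmn2 they were Aff3, Epb41l4a, Tnc, Cbln2 and Gng3 (r of 0.99 to 1.00). Tnc, the extracellular matrix glycoprotein tenascin C, averaged 5.79 in rhoGFP-positive, 7.28 in rhoGFP-negative and 8.74 in nestinGFP-positive cells.

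Wider lists of microtubule and neurite genes held 87 measured genes beside the members. They too were chosen with earlier results of these data known, so that their counts are no independent support for the members' pattern. Between the rhoGFP fractions 25 were called lower and 7 higher, with a median log2 difference of -0.42. Of all genes 7.32% were called lower and 3.61% higher there. Against nestinGFP-positive cells 35 were lower and 6 higher, with a median of -0.51, where 10.5% and 5.06% of all genes were. Between rhoGFP-negative and nestinGFP-positive cells 0 were called by limma, with a median of -0.20, where 0.605% and 0.385% of all genes were. At an unadjusted limma p below 0.05, 23 were lower and 4 higher there, as were 9.80% and 8.26% of all genes. Without the 3 arrays numbered 1 the called counts were 28 and 7, 33 and 6, and 2 and 0. The shares called over all genes apply also to the counts of each list below.

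Growth cone and axon growth genes were lower in 11 of 32 and higher in 2 between the rhoGFP fractions, with a median of -0.50, and lower in 12 and higher in 2 against nestinGFP-positive cells, with a median of -0.62. Fez1, an adaptor for kinesin cargo, was at -2.27 ± 0.17 between the fractions (limma adjusted p = 1.62e-05), and the axonal kinesin heavy chain Kif5c at -2.24 ± 0.13 (limma adjusted p = 4.47e-06). Against nestinGFP-positive cells they were at -2.79 ± 0.17 and -2.98 ± 0.13. The genes called higher in both were the ankyrin-binding adhesion molecule Nfasc (1.68 ± 0.27 and 1.40 ± 0.27) and the kinesin Kif21b (1.33 ± 0.27 and 1.35 ± 0.27). Of the collapsin response mediator genes, which link guidance cues to tubulin, Crmp1 (-1.95), Dpysl5 (-1.91), Dpysl4 (-1.48) and Dpysl2 (-1.07) fell between the fractions. Dpysl3, of the same family and list, was at 0.35 ± 0.19 and not called (limma adjusted p = 0.26). The family was singled out after its values were seen.

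Of 10 tubulin genes measured, 3 were lower and 1 higher between the rhoGFP fractions (median -0.47), and 5 were lower and 1 higher against nestinGFP-positive cells (median -0.90). The beta-tubulins Tubb2a (-2.10 ± 0.22, limma adjusted p = 0.000105) and Tubb6 (-1.81 ± 0.40, limma adjusted p = 0.00881) had the largest falls between the fractions. The alpha-tubulin Tuba4a rose, by 1.30 ± 0.18 against rhoGFP-negative (limma adjusted p = 0.000534) and 1.56 ± 0.18 against nestinGFP-positive cells (limma adjusted p = 0.000106). Tubulin coding sequences are much alike, so that a probe set may also read a related tubulin.

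Neurofilament genes split. Of 5, Ina and Nefm were lower and Nefh higher between the rhoGFP fractions, and Ina, Nefm and Nefl were lower and Nefh higher against nestinGFP-positive cells. Ina, encoding alpha-internexin of young neurons, was at -2.10 ± 0.14 between the fractions (limma adjusted p = 8.46e-06). Nefh, encoding the heavy chain that is added late in axon maturation, averaged 8.42 in rhoGFP-positive, 5.02 in rhoGFP-negative and 5.14 in nestinGFP-positive cells, a rise of 3.40 ± 0.16 and 3.28 ± 0.16 (limma adjusted p = 1.90e-06 and 1.07e-06).

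Of 24 other microtubule-associated and end-binding protein genes, 2 were lower and 2 higher between the rhoGFP fractions (median -0.08), and 6 were lower and 1 higher against nestinGFP-positive cells (median -0.06). Of all genes 7.32% were lower and 3.61% higher in the first comparison, and 10.5% and 5.06% in the second. The count of 2 lower between the fractions was near that share. Map6, whose product makes microtubules cold-stable, was at -1.91 ± 0.13 between the fractions (limma adjusted p = 8.99e-06), and the doublecortin family kinase Dclk2 at -1.24 ± 0.26 (limma adjusted p = 0.00566). Map7d2 (1.30 ± 0.17, limma adjusted p = 0.000397) and the end-binding gene Mapre3 (1.15 ± 0.29, limma adjusted p = 0.0167) rose. Against nestinGFP-positive cells the 2 largest falls were in Dclk2 (-1.76 ± 0.26) and Mtus2 (-1.53 ± 0.29), and the rise was in Mapre3 (1.09 ± 0.29).

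Of 16 neuronal RNA-binding and vesicle genes, 7 were lower and 1 higher between the rhoGFP fractions (median -0.79), and 9 were lower and 1 higher against nestinGFP-positive cells (median -1.10). The endosomal protein gene Nsg2 (-2.29 ± 0.23, limma adjusted p = 6.71e-05) and the neuronal RNA-binding gene Elavl3 (-2.11 ± 0.24, limma adjusted p = 0.000174) had the largest falls between the fractions. Snap25, a SNARE protein of transmitter release that photoreceptors also use, rose by 1.18 ± 0.15 (limma adjusted p = 0.000395) and, against nestinGFP-positive cells, by 1.60 ± 0.15 (limma adjusted p = 3.67e-05).

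**Figure D4:**
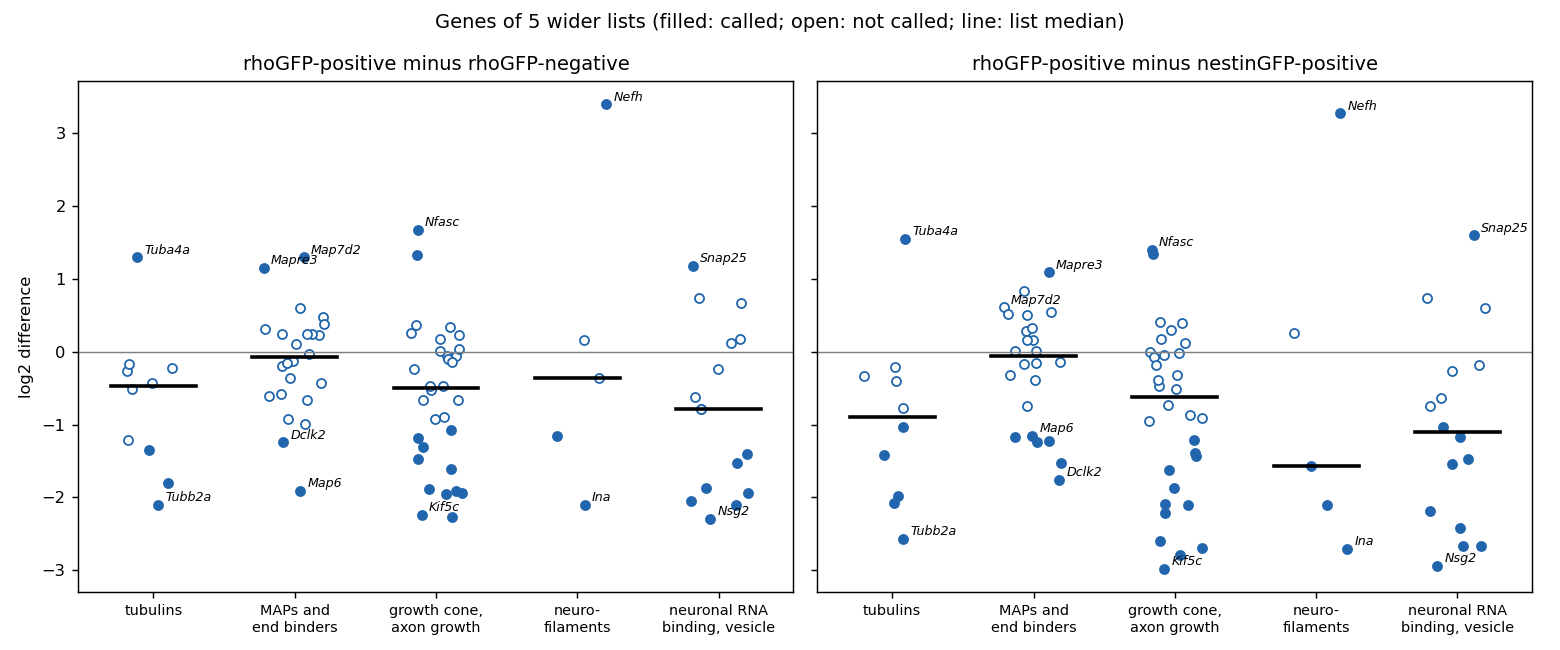
Log2 differences of the 87 genes in 5 wider lists, for the rhoGFP-positive group against rhoGFP-negative (left) and nestinGFP-positive cells (right), with filled points called, open points not called and a line at each list's median. Nefh, Tuba4a, Nfasc and Snap25 lie above 1 in both panels while the medians lie below 0.

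Markers of several other retinal cell types moved with the 8 lower members. Between the rhoGFP fractions 7.32% of all genes were called lower and 3.61% higher. The mean of 9 amacrine markers was 6.70 to 7.59 in rhoGFP-positive, 8.26 to 9.21 in rhoGFP-negative and 9.24 to 9.64 in nestinGFP-positive arrays, and 7 of 9 were called lower between the rhoGFP fractions. Progenitor markers averaged 8.10 to 8.75, 9.97 to 10.9 and 10.9 to 11.2 in the same order, with 8 of 9 called lower, and neurogenic precursor markers 7.98 to 8.37, 9.72 to 10.16 and 10.04 to 10.37, with 5 of 7 called lower. Horizontal cell markers averaged 5.81 to 6.14, 6.99 to 7.09 and 6.82 to 7.21, with 3 of 6 called lower. Of those called, Tfap2b is also on the amacrine list, and Onecut1 (0.004), Lhx1 (0.08) and Calb1 (0.21) did not fall between the rhoGFP fractions. Of the other lists, 3 of 5 Müller glia, 2 of 6 endothelial and mural and 1 of 7 bipolar markers were called lower there, 2 of 7 bipolar and 1 of 7 cone markers higher, and 0 of 6 microglia and 0 of 2 astrocyte markers either way. In the endothelial and mural list Kdr averaged 8.98, 11.42 and 11.32 and Cldn5 6.41, 7.96 and 8.78 in the same group order. The endothelial genes Pecam1 (4.38, 4.28 and 4.11) and Cdh5 (4.56, 4.55 and 4.53) did not fall.

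The mean of 11 ganglion cell markers was 5.54 to 5.74 in rhoGFP-positive, 6.03 to 6.48 in rhoGFP-negative and 6.20 to 6.74 in nestinGFP-positive arrays, and 3 of 11 were called lower between the rhoGFP fractions. Of all genes 7.32% were called lower there. Among the defining ganglion cell genes Pou4f3 lay between 2.95 and 3.25 on all arrays, near the lower end of the scale, and Pou4f1 between 5.94 and 7.36. The markers did not share a pattern: Sncg averaged 5.92, 5.74 and 6.56 in rhoGFP-positive, rhoGFP-negative and nestinGFP-positive cells, Nefl 6.94, 7.29 and 8.51, and Ebf3 6.80, 9.39 and 7.74. The part of these cell types in the members' differences was not tested.

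**Figure D5:**
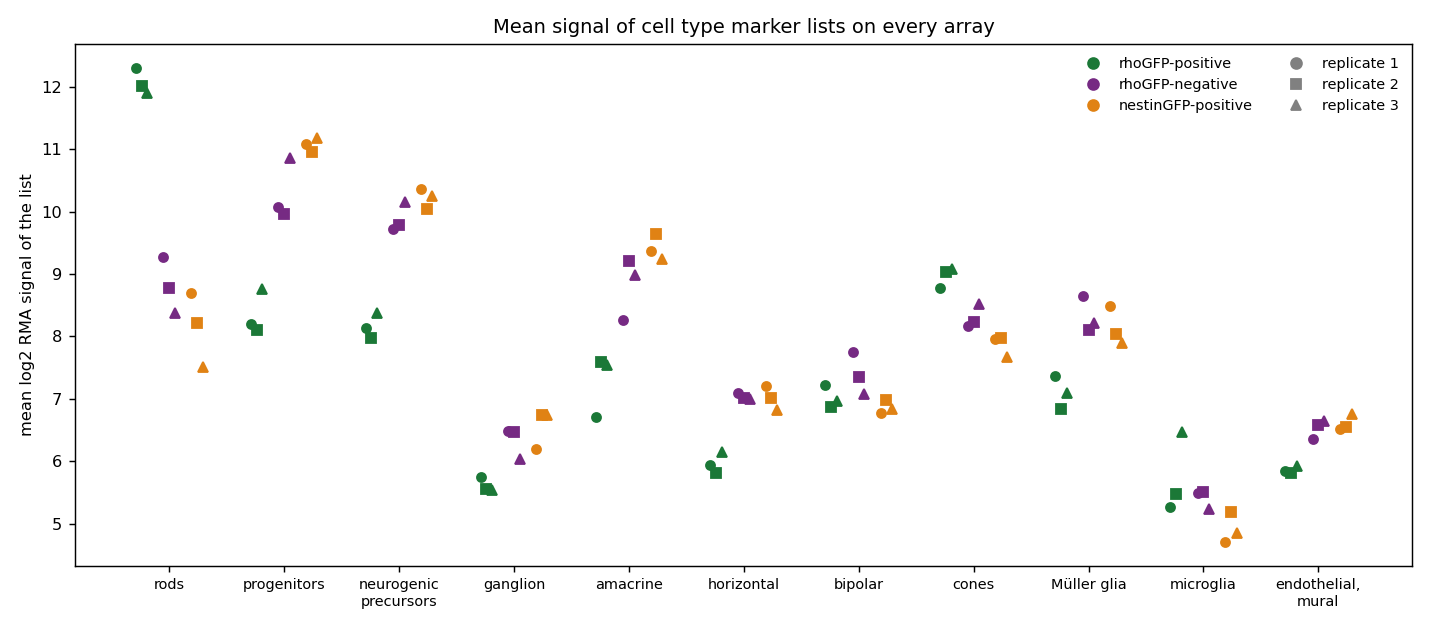
Mean log2 RMA signal of each cell type marker list on every array, coloured by sorted group with replicates as symbols. The rod and cone lists are highest in the rhoGFP-positive arrays, with no overlap with the other groups. The progenitor, neurogenic, amacrine, horizontal, ganglion, Müller glia and endothelial and mural lists are lowest there, also with no overlap. A list mean can rest on part of its genes, as in the horizontal and the endothelial and mural lists.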

How the data were processed

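RNA of 9 sorted retinal samples was measured on 1-colour Affymetrix arrays. Per the labels' protocols it was extracted on Qiagen columns and 200 ng was amplified to biotin-labelled cRNA. The authors deposited log2 values, and the submitters' processing notes name RMA without a version. This method background-corrects and quantile-normalizes probe signals before it summarises each probe set, and it shrinks folds of dim probe sets. Neither detection calls nor scan batches were at hand.

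The labels call the 3 samples of a group biological replicates. Of 45101 probe sets, 64 are controls, 34945 have 1 gene symbol and 932 several. A gene was read from its probe set with the highest mean. Groups were compared with limma 3.58.1 (R 4.3.3) in a single fit of 9 arrays and 3 group means, adjusted over 18193 genes, after a test on simulated data. Figures used matplotlib 3.10.9. The array number limits the precision (median SE 0.14).

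The members and lists were chosen with earlier results of these data known. From the wider lists the 2 largest called differences each way per comparison were named, among genes whose arrays did not overlap, and likeness was taken over genes above the median. The labels give replicate numbers but no shared pools. For arrays with the same number, the correlation of their deviations was 0.624, 0.454 and 0.451 for rhoGFP-positive with rhoGFP-negative, 0.522, -0.00806 and 0.252 for rhoGFP-positive with nestinGFP-positive, and 0.543, 0.155 and 0.235 for rhoGFP-negative with nestinGFP-positive. Every same-number pair was above 0.1 in the first and the last of these comparisons. Between the rhoGFP fractions each also exceeded every pair of different numbers, which reached at most 0.0735. For rhoGFP-negative with nestinGFP-positive it did not, as replicate 2 with replicate 3 gave 0.221, above 0.155. For rhoGFP-positive with nestinGFP-positive, replicate 2 with replicate 3 gave 0.387. The numbers thus pair the rhoGFP fractions, which rests on the data alone. Pairing with the nestinGFP-positive group was not settled. The arrays numbered 1 gave the highest correlation in each comparison with that group, 0.522 and 0.543, and replicates 2 and 3 did not follow the numbers as clearly. Alternatives were other normalizations, probe set choices, a filter on dim genes, fewer arrays, the replicate block, other variance settings and thresholds, and leaving out arrays.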

Additional observations from a re-analysis of the deposited data

How the results depend on the processing

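Of the members' log2 differences recomputed under alternatives, 583 kept their direction and their side of the threshold, 33 lost and 9 gained a call, and 5 changed sign, all of them values without a call. These 5 were between rhoGFP-negative and nestinGFP-positive cells: Gap43 at 0.046 without rhoGFP-negative replicate 1 and at 0.139 without the 3 arrays numbered 1, and Map2 at 0.089 without rhoGFP-negative replicate 1, 0.076 without nestinGFP-positive replicate 2 and 0.075 without the 3 arrays numbered 1. Leaving out 1 array gave -0.451 to 0.046 for Gap43 and -0.133 to 0.089 for Map2. Leaving out those 3 arrays was chosen after seeing the data. Many of the recomputed values could not change direction, because their setting leaves the log2 difference as it was. Such settings were the replicate block, other variance settings and thresholds, the filter on dim genes and a fit of only the arrays compared. Leaving out an array of the group outside a comparison was another. In these cases only the call could change, so the kept directions there are no check.

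Between rhoGFP-negative and nestinGFP-positive cells the count of members called lower, 2, was 1 after common-median, quantile and cyclic loess normalization, and 0 with the mean of all probe sets, with only the 6 arrays compared and at an adjusted p below 0.01. Leaving out 1 array gave 0 to 2. The count of all genes called there, 180, was 453 with the replicate block, 28 with only the 6 arrays compared, 23 at an adjusted p below 0.01 and 370 with no minimum difference, and 19 to 559 on leaving out 1 array. The block gave 3 members called lower there, adding Stmn2, and changed no other member's call in the 3 comparisons.

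Between the rhoGFP fractions 5 to 7 members were called lower on leaving out 1 array, and 0 to 1 higher, with 1 called higher (Map1b) also with no minimum difference. Against nestinGFP-positive cells 7 to 8 were lower and 1 higher throughout. With no minimum difference all genes called numbered 4417 between the rhoGFP fractions and 6508 against nestinGFP-positive cells, by the threshold's own construction. With the 2-fold minimum kept, leaving out 1 array gave 1818 to 2146 and 2760 to 2974. The main fit with that minimum called 1332 lower and 656 higher, and 1917 lower and 921 higher. Other causes were not tested. The table holds no detection calls, so that the dim probe sets of Dcx and Dclk1 with differences near 0 cannot be told from background.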
